A study of Mus musculus with 16 samples.

Results

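The miR-379 to miR-410 cluster is a run of microRNA (miRNA) hairpins on mouse chromosome 12, and its mature miRNAs were followed here in small RNA sequencing of mouse prefrontal cortex. Members were chosen by name, as the mature 5p and 3p rows of the hairpins that lie from miR-379 to miR-410. This gave 67 of the 1241 mature miRNA rows and of the 18488 features of all kinds in the table. The libraries came from 8 PS19 mice and 8 wild-type (WT) mice. PS19 mice (genotype PS19+/- in the labels) were heterozygous for a mutant human MAPT (tau) transgene and served as a model of tauopathy. The transgene is driven by the mouse prion protein promoter, which is active in neurons and in other brain cells, so that its product is not restricted to one cell type. Per the methods of the study, the WT mice were littermates without the transgene, both groups were in the tenth month of life, and each held as many males as females. The question put to the cluster was which of its miRNAs differed in level, or in the use of the 5p and 3p arm, between PS19 and WT.

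The cluster belongs to the imprinted Dlk1-Dio3 domain, in which the non-coding RNAs are made from the maternal chromosome. Its hairpins are cut out of long transcripts, which include the non-coding RNA Mirg, and each hairpin can release a miRNA from its 5′ side (5p) and from its 3′ side (3p). A miRNA pairs with its target mRNAs mainly through bases 2 to 8, the seed. The cluster is found in placental mammals, is strongly expressed in brain, and holds miRNAs that respond to neuronal activity and act in dendrites and synapses.

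Of the 67 members, 64 had a mature sequence in RefSeq (GRCm38.p6), between 18 and 25 bases long. The entries ran over chr12:109709065-109743784, which is 34.7 kb, and came from 35 hairpin genes, of which 34 lay on the plus strand and 1, Mir299b, on the minus strand. GENCODE release M21 of the same assembly has Mirg, a lincRNA on the plus strand, at chr12:109729764-109749460. The 12 hairpins from Mir382 to Mir410 lay inside Mirg, 5 of them in exons (Mir134, Mir485, Mir377, Mir412 and Mir410) and 7 in introns. The other 23, from Mir379 to Mir544, overlapped no annotated gene other than each other, as Mir299a and Mir299b do on opposite strands. The most abundant members with an entry are printed first because they make up most of what was sequenced from the cluster, in order of their mean level and with the seed in capitals.
miR-379-5p: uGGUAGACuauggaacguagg
miR-541-5p: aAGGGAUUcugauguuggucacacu
miR-382-5p: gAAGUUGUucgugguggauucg
miR-409-3p: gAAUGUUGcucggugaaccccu
miR-666-5p: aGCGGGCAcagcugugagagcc
miR-134-5p: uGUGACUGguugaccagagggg
miR-543-3p: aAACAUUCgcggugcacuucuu
miR-381-3p: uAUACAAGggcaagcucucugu
miR-411-5p: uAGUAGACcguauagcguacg

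The next 3 are printed because they were lower in PS19 at an unadjusted p under 0.05, as described further on. They have different seeds. All 3 are minor products, with a mean under 13 normalized counts.
miR-377-5p: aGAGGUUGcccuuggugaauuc
miR-1193-3p: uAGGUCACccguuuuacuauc
miR-382-3p: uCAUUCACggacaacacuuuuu

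The 64 sequences held 60 different seeds, and 4 seeds were shared by 2 members each. The seed GGUAGAC joined the most abundant member, miR-379-5p (mean 71519), to one of the rarest, miR-1193-5p (2.66). The other shared seeds were AUGUAAC in miR-411-3p (483.3) and miR-379-3p (306.2), UGGAUAU in miR-376b-5p (149.2) and miR-376c-5p (3.60), and AUGUGGG in miR-299a-3p (20.2) and miR-299b-3p (4.62). The second member of each pair is printed with close relatives, since reads from near-identical miRNAs can be assigned to either.
miR-1193-5p: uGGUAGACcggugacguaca
miR-411-3p: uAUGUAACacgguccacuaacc
miR-379-3p: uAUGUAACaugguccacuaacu
miR-376b-5p: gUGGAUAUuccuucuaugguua
miR-376c-5p: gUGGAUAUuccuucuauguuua
miR-299a-3p: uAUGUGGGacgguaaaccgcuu
miR-299b-3p: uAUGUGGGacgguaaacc
miR-300-3p: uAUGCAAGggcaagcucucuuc
miR-495-3p: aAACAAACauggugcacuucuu

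Differences between relatives are given as the base of the first named, the position from 1 at the 5′ end, and the base of the second. miR-376b-5p and miR-376c-5p differed at 1 of 22 positions (G19U), and miR-411-3p and miR-379-3p at 2 (C10U and C22U). miR-381-3p and miR-300-3p differed at 3 (A4G, G21U and U22C), the first of which is in the seed. miR-543-3p and miR-495-3p differed at 4 (U6A, U7A, G9A and C10U). miR-299b-3p, from the opposite strand, was identical to miR-299a-3p over all of its 18 bases, so the values of this pair are uncertain. Some seeds were also found outside the cluster. miR-410-3p shared its seed with miR-344d-3p (mean 1752), miR-377-5p with miR-672-5p (1619), miR-1193-3p with miR-370-5p (192.7) and miR-412-3p with miR-1983 (84.1).

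A short pattern recurred across the cluster. GGUNNNCC, with N for any base, was present in 21 of the 64 members (32.8%), against 40 of all 1674 mouse mature miRNA sequences of RefSeq (2.39%). Among 5p members it was present in 14 of 32 (43.8%) and among 3p members in 7 of 32 (21.9%). Read on the opposite strand the pattern is GGNNNACC, which was present in 13 of 64 members (20.3%) and in 31 of the 1674 (1.85%). The pattern can be seen in miR-134-5p, miR-409-3p, miR-377-5p and miR-1193-3p above. The members are related in sequence and are not independent of each other.

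Library size and composition set how members could be compared. Recovered reads were between 13.2 M and 23.1 M per library, and between 98381 and 301313 of them fell on the cluster. Values are normalized counts, that is, reads divided by 1 size factor per library. Mature miRNAs took from 14.8% (WT replicate 7) to 32.0% of all signal in a library, and this share bears on every miRNA value, since it was not removed by the scaling. The tissue label was checked against summed neuron marker rows (all 7 with a mean of at least 5), which held 195604 to 783744 normalized counts in PS19 and 274632 to 755489 in WT. Most of this was miR-128-3p (mean 486403), so the check rests mainly on 1 miRNA and cannot tell regions of the brain apart. Library codes began with G in all 8 PS19 libraries and in WT replicates 2 and 4, with F in 4 other WT libraries and with A in the last 2, and what this letter means was not stated. Nothing in the labels says which mice shared a litter, and p-values weigh a difference of the groups against the spread between these libraries.

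The cluster was dominated by few members. The mean normalized count over the 16 libraries was 71519 for miR-379-5p, 41714 for miR-541-5p and 26827 for miR-382-5p, and these 3 held between 74.8% and 81.6% of the summed cluster in every library. miR-379-5p was the 13th most abundant of all mature miRNAs, miR-541-5p the 19th and miR-382-5p the 29th. A second tier held miR-409-3p (7848), a miRNA that acts in the specification of cortical projection neurons, miR-666-5p (5920), miR-134-5p (4141), miR-543-3p (4118), miR-485-5p (3471), miR-381-3p (3059) and miR-411-5p (2648). miR-668-3p (1071) and miR-323-3p (1069) completed the 12 members with a mean of at least 1000. Another 36 had a mean between 5 and 1000, and 19 were under 5, of which 7 were under 1. Abundance compared between miRNAs in this way includes how well each was ligated and amplified, which was not measured.

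Level did not follow position along the cluster. miR-379-5p, at the first hairpin, had a mean of 71519, and miR-411-5p, at the next, one of 2648. miR-541-5p and miR-409-3p lay close to the far end, 33.4 kb and 34.1 kb from the start of the miR-379 arms. They were next to miR-412 at 34.2 kb, with means of 161.0 for its 5p arm and 2.98 for its 3p arm. At the hairpin of miR-544, 20.3 kb along, the 5p arm was read once in all 16 libraries and the 3p arm 4 times.

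**Figure D1:**
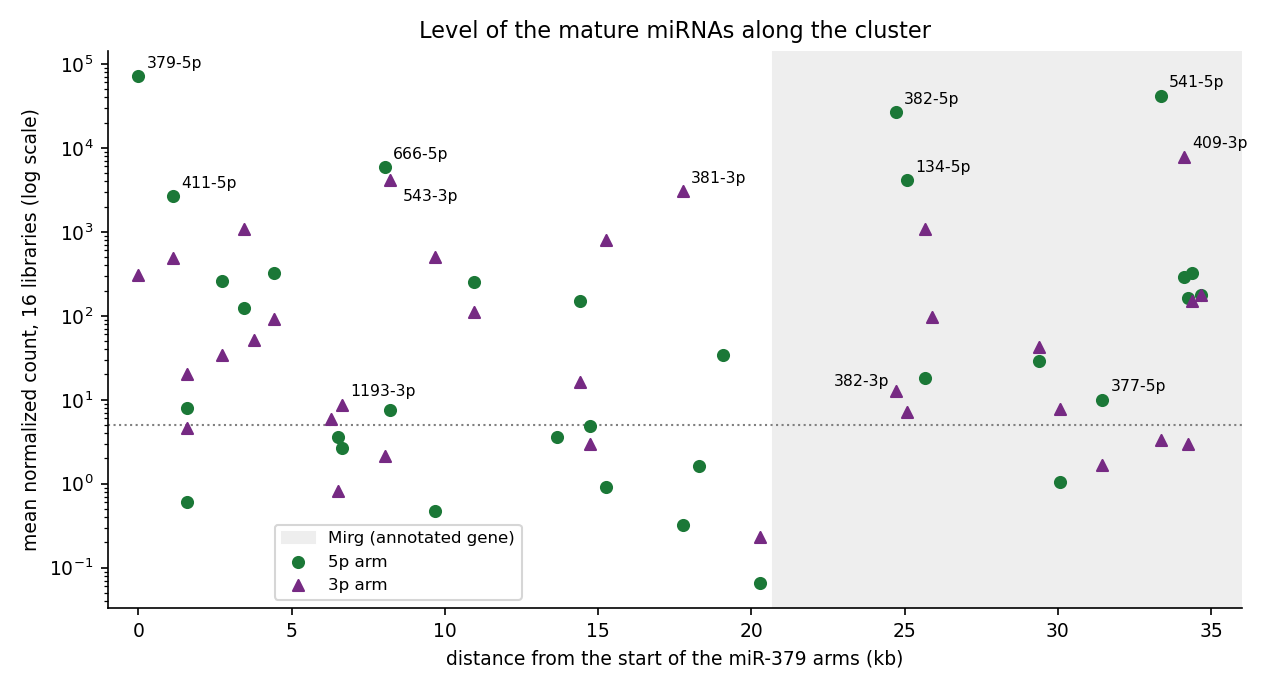
Mean normalized count of the 64 members with a RefSeq entry over the 16 libraries (log scale) against the distance of their hairpin from the first arm of miR-379 (kb), with circles for 5p and triangles for 3p arms. The 3 highest points, miR-379-5p, miR-541-5p and miR-382-5p, lie at 0, 33.4 and 24.7 kb, the grey area marks Mirg, and the dotted line marks a mean of 5, the minimum for testing.

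The level of the cluster varied widely between mice and overlapped between genotypes. The members summed to 86798 to 298150 normalized counts in PS19 (median 158330) and to 69579 to 275205 in WT (median 183752). The highest sum was in PS19 replicate 1 and the lowest in WT replicate 7, the library with the lowest share of miRNAs. As a share of the mature miRNA signal the cluster held 3.92% ± 0.519 (SD, n = 8) in PS19, against 3.99% ± 0.512 (SD, n = 8) in WT. These shares lay between 3.39% and 5.0% in PS19 and between 3.12% and 4.97% in WT, and the difference of the means was smaller than either SD. Of the 67 members, 57 to 63 were above 0 in a PS19 library and 59 to 65 in a WT library.

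**Figure D2:**
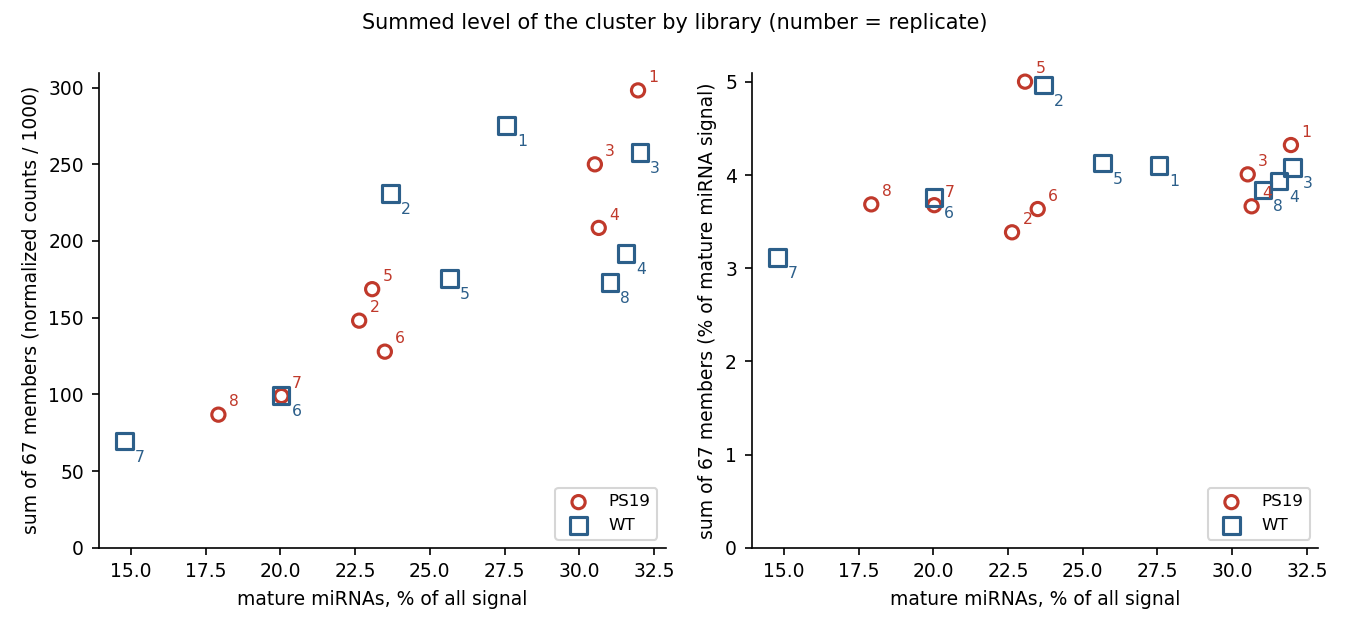
Sum of the 67 members in normalized counts divided by 1000 (left) and as a percentage of the mature miRNA signal (right) against the percentage of all signal held by mature miRNAs, one point per library, with circles for PS19, squares for WT and numbers for replicates. The sums spread from 69579 (WT replicate 7) to 298150 (PS19 replicate 1), while the shares stay between 3.12% and 5.0% with both genotypes mixed.

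Members varied together from mouse to mouse. Over the 1128 pairs of the 48 members with a mean of at least 5, the median Pearson r on the log2 scale was 0.731 across the 16 libraries. All 48 had a positive r with the share of miRNAs in the library, with a median of 0.761 and a range of 0.124 to 0.909. After division by the mature miRNA total the median r between pairs was 0.236. These correlations describe libraries that share a scaling, and they carry no test. The median deviation of the 48 members from their own means, in log2, was highest in WT replicate 3 (0.86) and PS19 replicate 1 (0.86), and lowest in PS19 replicate 8 (-1.08) and WT replicate 7 (-1.07).

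Genotype was then tested with limma on log2(value + 1) over the 6024 features with a mean of at least 5, 48 of them members. At an unadjusted p under 0.05, 4 members (8.33%) were lower and 0 higher in PS19, where 4.0% of all 6024 features passed, 2.14% lower and 1.86% higher. The 4 were miR-377-5p, miR-1193-3p, miR-382-3p and miR-376c-3p, the last of which reached a mean of 5 only through WT (3.31 in PS19, 7.02 in WT). Of the 521 mature miRNAs tested, 2.88% passed. No member passed at an adjusted p under 0.05 (limma, Benjamini-Hochberg over the 6024 features, 0 members and 0.0% of all features), and each of the 4 had an adjusted p of 0.9998. DESeq2 on recovered reads gave the same 4 members at an unadjusted p under 0.05 (4.7% of all features) and edgeR gave 3 of them (4.4% of all features). At an adjusted p under 0.05 both tools gave 0 members, where DESeq2 called 0.249% and edgeR 0.0% of all features. The groups overlapped in all 48 members, as they did in all but 6 of the 6024 features (0.0996%).

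The estimated difference was below 0 in 42 of the 48 members (87.5%), as in 66.4% of the 521 mature miRNAs tested and 53.2% of all features. Its median was -0.29 on the log2 scale, against -0.13 over the mature miRNAs and -0.02 over all features. With miRNAs scaled to the mature miRNA total, 37 of the 48 were below 0 and the median was -0.24. The members share libraries and move together, so the 42 are not 42 separate observations, and no test was made of the median. It was between -0.50 (without WT replicate 7) and -0.17 (without PS19 replicate 8) when single libraries were left out. The 29 members with a mean of at least 100 had a median of -0.25, with 0 at an unadjusted p under 0.05 in limma, where 3 of the 258 mature miRNAs of that range (1.16%) passed. The 19 with a lower mean had a median of -0.46 and included all 4 that passed, and among mature miRNAs of that range, 12 of 263 (4.56%) passed. Across the 48 members the log2 difference had a Pearson r of 0.49 with the log2 mean level, and across the 45 with a sequence an r of 0.47 with GC content. Members of hairpins before Mirg had an estimate below 0 in 28 of 28, and members within Mirg in 14 of 20.

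**Figure D3:**
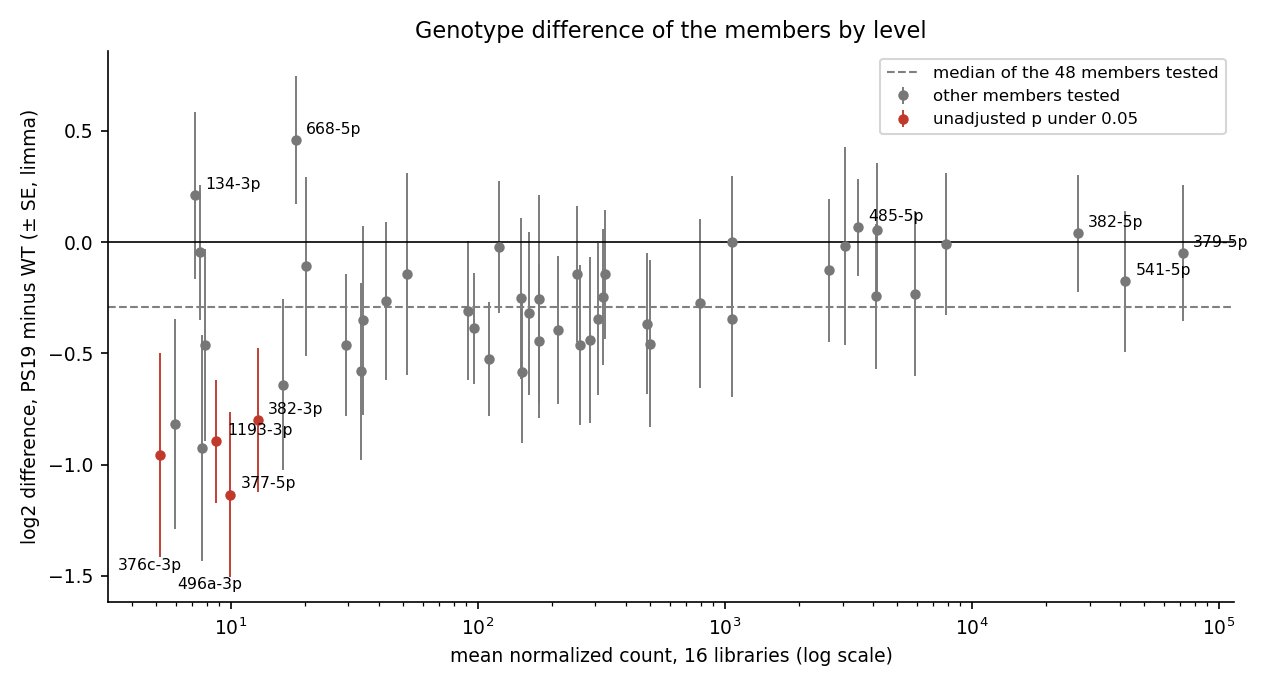
Log2 difference between PS19 and WT (± SE, limma) of the 48 members tested against their mean normalized count (log scale). Red points are the 4 members with an unadjusted p under 0.05, all with a mean under 13; the dashed line is the median of the 48 members, -0.29, and 42 points lie below 0.

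miR-377-5p had the largest difference of the 48. Its normalized counts were 1.97 to 8.73 in PS19 (median 5.27) and 3.54 to 25.6 in WT (median 14.6). All 8 PS19 libraries lay below the WT median, while WT replicates 6 and 7, at 5.0 and 3.54, lay among the PS19 values. The log2 difference was -1.14 ± 0.37 (SE), with a 95% interval of -1.91 to -0.36. The p was 0.0059 in limma (adjusted p 0.9998) and 0.0143 when all 12870 assignments of the libraries were enumerated (exact permutation test, two-sided). Its unadjusted p stayed under 0.05 without any 1 of the 16 libraries (largest 0.0157, without WT replicate 3). The library total behind it was small, from 2 to 29 reads.

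miR-1193-3p, from a hairpin before Mirg, had normalized counts of 2.19 to 11.6 in PS19 (median 4.84) and 7.78 to 17.1 in WT (median 11.6). No WT library was as low as the 6 lowest PS19 libraries, and the groups overlapped through PS19 replicates 3 and 4. The log2 difference was -0.89 ± 0.28 (SE; 95% interval -1.47 to -0.32), with p = 0.0039 in limma and p = 0.00342 in the exact permutation test. It rested on 3 to 20 reads per library. With the letter of the library code in the model the log2 difference was -0.75 and did not pass.

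miR-382-3p, the minor arm of the third most abundant member, had normalized counts of 4.16 to 14.9 in PS19 (median 8.67) and 6.0 to 24.8 in WT (median 18.6). In all, 6 WT libraries lay above all PS19 libraries, and WT replicates 6 and 7, at 6.0 and 6.37, lay low. The log2 difference was -0.80 ± 0.32 (SE; 95% interval -1.47 to -0.13), with p = 0.0218 in limma and p = 0.0348 in the exact permutation test. Without PS19 replicate 7 the p was 0.050. Its partner arm, miR-382-5p, did not share the difference: its values were 13398 to 44684 in PS19 and 11584 to 35317 in WT, which gave a log2 difference of 0.04 ± 0.26 (SE; 95% interval -0.50 to 0.58).

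miR-376c-3p was the least certain of the 4. Its mean was 3.31 in PS19 and 7.02 in WT, so it reached the minimum mean of 5 for testing only through WT. It had 0 to 9.60 normalized counts in PS19 (median 2.07) and 2.12 to 18.8 in WT (median 6.64), and 87 reads in all libraries together. Its highest value, in WT replicate 3, was 18.8, and the next WT value was 8.04. The log2 difference was -0.96 ± 0.46 (SE), with p = 0.0487 in limma and p = 0.0611 in the exact permutation test. The unadjusted p was under 0.05 in 6 of the 16 fits that left out 1 library, and 0.12 without WT replicate 3. Precursors of the miR-376 family are known to be edited from A to I in brain, and reads of edited miRNAs were not counted separately in these values.

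**Figure D4:**
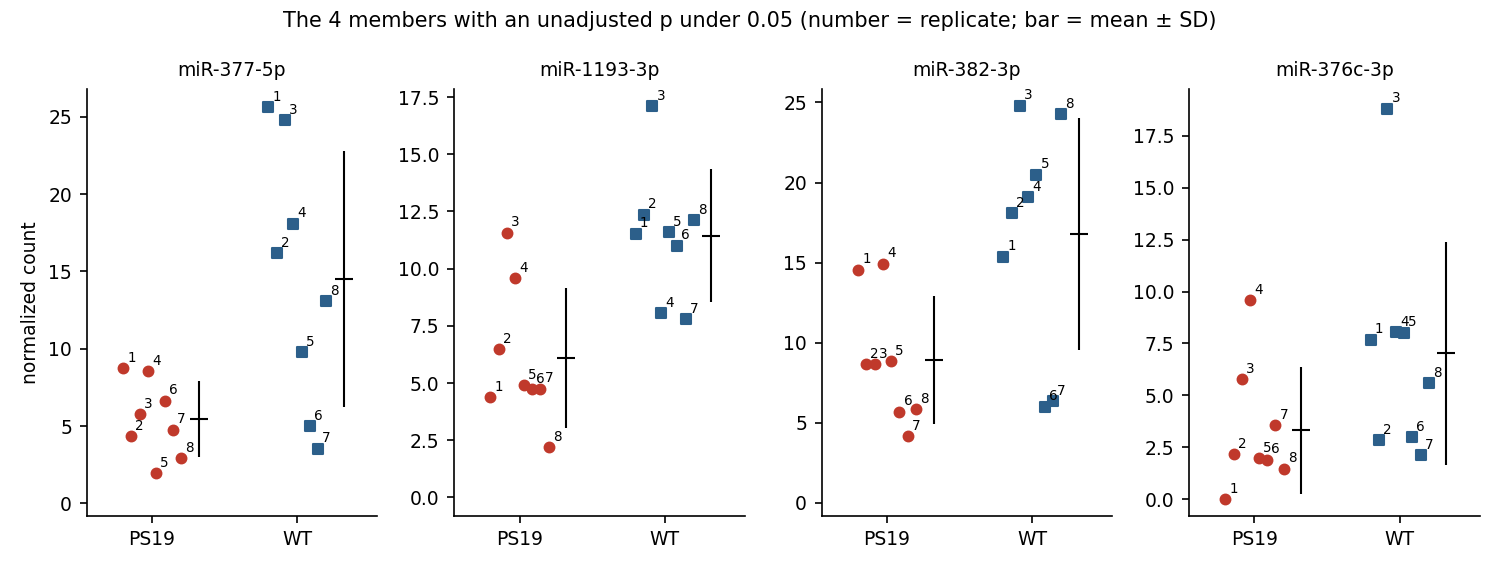
Normalized counts of miR-377-5p, miR-1193-3p, miR-382-3p and miR-376c-3p in each PS19 (circles) and WT (squares) library, numbered by replicate, with the mean ± SD (n = 8) at the side. WT values run up to 25.6, 17.1, 24.8 and 18.8, and PS19 values up to 8.73, 11.6, 14.9 and 9.60, with the groups overlapping in each.

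How many members passed depended on single libraries. Leaving out 1 library gave between 3 and 9 members at an unadjusted p under 0.05 in limma, all lower in PS19, with 9 without PS19 replicate 1 (5.33% of all features), 8 without WT replicate 6 (4.33%) and 7 without WT replicate 7 (4.85%). PS19 replicate 1 was the PS19 library with the highest cluster sum, and WT replicates 6 and 7 were the WT libraries with the lowest. The members added without PS19 replicate 1 included miR-369-3p (log2 difference -0.75) and miR-667-3p (-0.62), which also passed without WT replicate 6 and without WT replicate 7. With miRNAs scaled to the mature miRNA total, 8 members passed, 7 lower and 1, miR-668-5p (0.52), higher, where 4.47% of all features passed.

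The library code bears on the same comparison. All PS19 libraries had the letter G, so that only WT replicates 2 and 4 can be compared with them within a letter. The median deviation of the 48 members was -0.15 ± 0.63 (SD, n = 8) in PS19, 0.63 and 0.44 in WT replicates 2 and 4, and 0.05 ± 0.79 (SD, n = 6) in the WT libraries of the letters F and A. After division by the mature miRNA total these deviations were -0.12 ± 0.20 (SD, n = 8) in PS19, 0.51 and 0.22 in WT replicates 2 and 4, and 0.07 ± 0.20 (SD, n = 6) in the other 6 WT libraries. On that scale all WT libraries together had 0.15 ± 0.23 (SD, n = 8), the ranges of the genotypes overlapped (-0.31 to 0.18 in PS19, -0.21 to 0.51 in WT), and no test was made of this summary over members. With the letter in the model the median log2 difference of the members was -0.70, the estimate was below 0 in 47 of 48, and 2 members passed at an unadjusted p under 0.05, miR-377-5p (-1.59) and miR-382-3p (-1.08), where 2.06% of all features passed. What the letter stands for cannot be told apart from genotype in the other 6 WT libraries.

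The abundant members showed no difference beyond the spread between mice. miR-379-5p had 30925 to 121215 normalized counts in PS19 (median 61301) and 25123 to 108312 in WT (median 80786). Its log2 difference was -0.05 ± 0.31 (SE; p = 0.89 in the exact permutation test), with a 95% interval of -0.69 to 0.59, which is 0.622 to 1.5 as a fold. miR-541-5p had 18812 to 75319 in PS19 and 16280 to 71351 in WT, with a log2 difference of -0.18 (95% interval -0.83 to 0.48). In both miRNAs, low and high libraries were found in each genotype.

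The other 8 of the 10 most abundant members had estimates between -0.24 and 0.07. miR-409-3p had a mean of 7786 ± 3832 (SD, n = 8) in PS19, against 7909 ± 3811 (SD, n = 8) in WT, a log2 difference of -0.01. For miR-666-5p the means were 5338 ± 3659 and 6502 ± 4003, and PS19 replicate 1, at 13935, stood above the next PS19 library at 6442. miR-543-3p had a log2 difference of -0.24 and miR-411-5p of -0.13, each within the spread between mice. The estimates of miR-379-5p, miR-382-5p, miR-409-3p, miR-134-5p and miR-381-3p were so close to 0 that their sign changed with the scaling, the tool or the library code. Half-widths of the 95% intervals over the 48 members ran from 0.45 to 1.05 on the log2 scale, with a median of 0.70, and 28 of the 48 intervals reached below -1.

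The members with known synaptic roles were followed by name. miR-134-5p, which limits the size of dendritic spines through Limk1, had 2321 to 7170 normalized counts in PS19 (median 3478) and 1809 to 6919 in WT (median 3307), with a log2 difference of 0.05 ± 0.30 (SE). miR-485-5p, which represses the synaptic vesicle protein Sv2a, had 1730 to 4835 in PS19 (median 3447) and 2467 to 4816 in WT (median 3323), with the narrowest interval of the 48 (log2 difference 0.07, 95% interval -0.39 to 0.52). miR-381-3p, induced by neuronal activity, had 946.4 to 5662 in PS19 and 662.7 to 5960 in WT, a log2 difference of -0.02. None of the 3 differed beyond the spread between mice in limma.

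The others on the list were less abundant. miR-329, which like miR-134 takes part in the activity-dependent growth of dendrites, had log2 differences of -0.14 (5p, mean 327.5) and -0.31 (3p, mean 91.9). miR-495-3p, a repressor of Bdnf, had 192.4 to 835.4 in PS19 (median 399.2) and 160.5 to 1050 in WT (median 627.4), a log2 difference of -0.46 ± 0.38 (SE; p = 0.296 in the exact permutation test). For miR-300-3p, the relative of miR-381-3p, the log2 difference was -0.27, and for miR-487b-3p (mean 212.0) it was -0.40. In PS19 replicate 1, miR-487b-3p stood at 387.2 with the next PS19 library at 201.5. The last miRNA of the cluster, miR-410, had nearly equal means of its arms, 177.7 for 3p and 177.2 for 5p, and log2 differences of -0.44 and -0.25. In single libraries its log2 ratio of 3p to 5p ran from -0.80 to 1.56. Within the miR-376 family, miR-376b-5p (149.2) and miR-376b-3p (16.3) had log2 differences of -0.25 and -0.64, while miR-376a-5p, miR-376a-3p and miR-376c-5p had means under 5 and were not tested.

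The largest estimates above 0 were in minor arms. miR-668-5p had 11.3 to 33.1 normalized counts in PS19 (median 21.5) and 6.37 to 23.1 in WT (median 15.7), with a log2 difference of 0.46 ± 0.29 (SE; p = 0.134 in the exact permutation test). With the letter of the library code in the model this was -0.04. miR-134-3p, with a mean of 7.20, had a log2 difference of 0.21, and -0.28 with the letter in the model. miR-496a-3p, at the other end, had a log2 difference of -0.92 ± 0.51 (SE; p = 0.127 in the exact permutation test) and was at 0 in 1 library.

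Both arms were compared for the 17 hairpins of the cluster in which each had a mean of at least 5, as the log2 ratio of 3p to 5p within a library. The size factor and the share of miRNAs of a library cancel in this ratio where both arms are far above the pseudocount of 1, and only in part for minor arms of few counts. The 5p arm was higher in all 16 libraries in 9 hairpins and the 3p arm in 5, while miR-667, miR-154 and miR-410 were mixed. Differences were steep: the WT mean of the log2 ratio was -10.59 in miR-382, -9.08 in miR-134 and -7.75 in miR-379, but 8.95 in miR-543, 6.0 in miR-668 and 4.63 in miR-409. Neighbouring hairpins went opposite ways, as in miR-134 and miR-668 inside Mirg.

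Genotype was tested on the arm ratio with limma over the 121 hairpins of the table with both arms. At an unadjusted p under 0.05, 2 of the 17 cluster hairpins passed, where 4.96% of the 121 did. In miR-382 the log2 ratio of 3p to 5p ran from -11.74 to -10.92 in PS19, against -11.21 to -10.07 in WT. All 8 PS19 libraries lay below the WT median, and the PS19 range was entered by WT replicates 1 and 6 alone. The difference was -0.84 ± 0.19 (SE; 95% interval -1.24 to -0.44), with p = 3.45e-04 in limma and p = 9.32e-04 in the exact permutation test. Its adjusted p was 0.0418 in limma, and it was the 1 hairpin of 121 (0.826%) to pass the adjusted threshold.

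The adjusted result for miR-382 rests on a 3p arm with 6 to 29 reads per library and did not hold everywhere. The unadjusted p stayed under 0.05 without any 1 library (largest 0.00101), with a difference between -0.93 and -0.76, but the adjusted p was under 0.05 in 4 of the 16 such fits and between 0.00899 and 0.122 over all of them. With the replicate number as a block, 0 cluster hairpins passed at an adjusted p under 0.05 in limma. With the letter of the library code in the model the miR-382 difference was -0.85 with an adjusted p = 0.772 in limma. miR-485 was the second hairpin, with a log2 ratio of -5.41 ± 0.39 (SD, n = 8) in PS19, against -4.95 ± 0.26 (SD, n = 8) in WT, a difference of -0.45 (adjusted p = 0.689 in limma, p = 0.0137 in the exact permutation test). The 17 cluster hairpins had a median difference of -0.24 and the 121 a median of 0.06. In the opposite direction, miR-409 had a difference of 0.43 (p = 0.0554 in limma and 0.0479 in the exact permutation test), and no cluster hairpin passed in limma with a difference above 0.

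**Figure D5:**
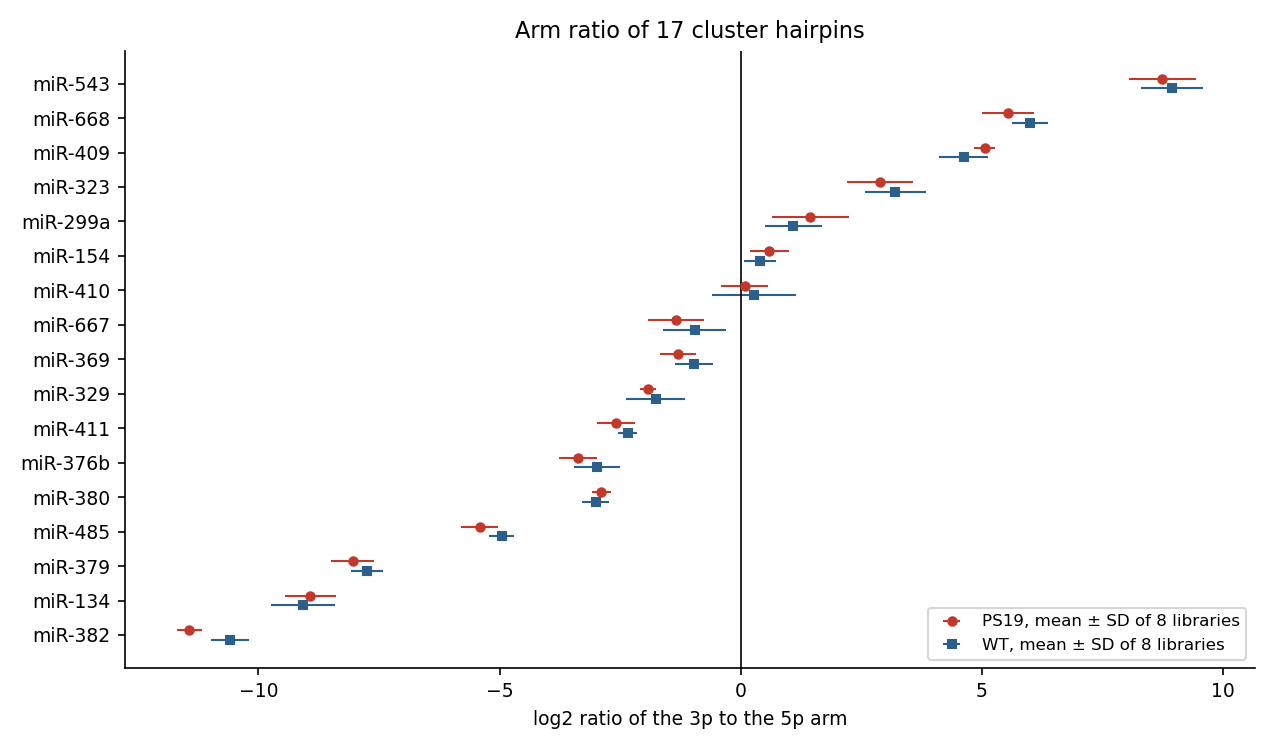
Log2 ratio of the 3p to the 5p arm in 17 cluster hairpins, as mean ± SD of the 8 PS19 (circles) and the 8 WT (squares) libraries, ordered by the WT mean. The ratios run from -10.59 (miR-382) to 8.95 (miR-543) in WT, and miR-382, at the bottom, has the PS19 mean 0.84 below the WT mean.

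The hairpin precursors were listed in the same table. The 35 precursor rows of the cluster summed to 2.61% of the mature members. Of the 21 with a mean of at least 5, 0 passed at an unadjusted p under 0.05 in limma, and the median log2 difference was -0.10. The most abundant was mmu-mir-382, with 1184 ± 463.6 (SD, n = 8) in PS19, against 1775 ± 811.4 (SD, n = 8) in WT, a log2 difference of -0.48 ± 0.33 (SE). The precursor row of miR-485 had means of 1036 and 1173, a log2 difference of -0.20. How reads were divided between a precursor and its mature rows was not given in the sources used here.

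The rest of the imprinted domain gave a setting for these values. Its other miRNAs, among them miR-127 and miR-433, which lie antisense to the Rtl1 gene, gave 33 mature rows. Of these, 25 were tested, 0 passed at an unadjusted p under 0.05 in limma, and 21 had an estimate below 0, with a median of -0.20. miR-127-3p, the fifth most abundant mature miRNA, had a mean of 261536 in PS19 and 261517 in WT. Between the start of Rian and that of Mirg, 13 of 16 listed snoRNA rows were tested, with a median log2 difference of -0.09. The 1 that passed, Gm23787, had a log2 difference of -0.54 ± 0.25 (SE; adjusted p = 0.9998 in limma) and is named after its value was seen.

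The miRNAs whose levels followed the summed cluster most closely over the 16 libraries were miR-98-5p (Pearson r = 0.970), miR-431-5p (0.967), miR-127-5p (0.966), miR-325-5p (0.956) and miR-493-5p (0.949), on the log2 scale. miR-431, miR-127 and miR-493 belong to the same imprinted domain, while miR-98 and miR-325 do not. The share of miRNAs differed between these libraries and bears on all miRNA rows together, and the values carry no test. Rows of circular RNAs also followed members: mmu_circ_0003737 followed miR-382-5p (r = 0.997) at 1.21 times its mean, and mmu_circ_0003735 followed miR-495-3p (r = 0.999) at 1.07 times. Whether the same reads were counted in both rows was not tested.

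The 19 members with a mean under 5 were not tested. The highest was miR-376a-5p, with 82 reads in all libraries together, followed by miR-299b-3p with 73 and miR-376c-5p with 61. They included the passenger arms of abundant members, such as miR-541-3p with 52 reads against 658549 for miR-541-5p, miR-666-3p with 32 against 94021 and miR-381-5p with 6 against 46860. miR-377-3p, the partner of miR-377-5p, had 28 reads and was at 0 in 6 libraries. miR-300-5p and miR-495-5p were each at 0 in 9 libraries, and miR-544-5p was at 0 in 15.

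Cell composition could not be separated from these values. In bulk tissue, fewer cells of a type and less RNA per cell cannot be told apart. The summed neuron marker rows had a log2 difference of 0.00 between PS19 and WT, the 6 oligodendrocyte rows 0.39 and the 7 rows of microglia and other leukocytes 0.37, and the 6 vessel rows -0.30. miR-128-3p (mean 486403) held most of the neuron sum, miR-219a-2-3p (30515) of the oligodendrocyte sum and miR-146a-5p (1203) of the microglia and leukocyte sum. Rows of a set did not all go the same way. Among the leukocyte rows, miR-155-5p had 753 reads in PS19 and 367 in WT, but miR-223-5p had 50 and 69. Rows of tissue outside the cortex were also present: the 8 rows of olfactory epithelium and bulb had a log2 difference of -0.54, the 8 of choroid plexus 0.38, the 4 of muscle -0.20, the 5 of red blood cells -0.04 and the 1 of liver 0.10. The olfactory sum was 34.6 to 612.9 in PS19 and 62.4 to 3483 in WT, and the choroid plexus sum 1407 to 19806 in PS19 and 1018 to 14307 in WT. The choroid plexus rows also differed in direction: miR-1298-5p had 20674 reads in PS19 and 17284 in WT, but miR-1298-3p had 942 and 1751. The ranges of PS19 and WT overlapped in all 9 marker sets. For microglia and leukocytes, of which 3 rows had a mean of at least 5, the sum was 574.1 to 3019 in PS19 and 439.2 to 1550 in WT. Among the rows of all sets, miR-219b-5p (oligodendrocytes) and miR-141-5p (olfactory) were at 0 in all 8 PS19 libraries, and each had 1 read in the WT libraries together. Their part in the differences of the cluster was not tested.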

How the data were processed

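Small RNA libraries were made from prefrontal cortex of 8 PS19 and 8 WT mice, with RNA isolated by a Norgen kit and libraries by a NEBNext kit, per the labels. The authors ran COMPSRA, which aligns with STAR and counts reads for each annotated small RNA; the submitters' processing notes list STAR 2.5.3a, DESeq2 1.42.1 and mm10. The deposited values are a normalized signal, namely counts the authors divided by 1 size factor per library. The same deposited table holds the authors' log2 fold changes, Wald score and p-values, none of which was used. Columns of sample values left unused numbered 0.

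Whole reads were recovered by dividing each library by its smallest value above 0. In all 16 libraries 100% of values came out whole (tolerance 1e-06), with weaker evidence in WT replicates 4 and 6, where a read was worth about 1. Members and lists were chosen with earlier results of these data known. The named genes were members at an unadjusted p under 0.05, the 10 highest means, the 3 largest differences each way and both arms of 12 listed miRNAs.

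Features with a mean of at least 5 were tested by limma 3.58.1 (lmFit and eBayes with trend, R 4.3.3) on log2(value + 1) with genotype as the term, which understates changes of low features, and p-values were two-sided. The arm ratio was fitted alike. Exact permutation tests were two-sided, over 12870 assignments, in Python 3.11.15 with scipy 1.17.1. On simulated data with 200 of 6024 features changed, limma recovered 80% at a log2 change of 2 and 17% at a log2 change of 1, at an adjusted p under 0.05. Alternatives were DESeq2 1.42.0 and edgeR 4.0.16 on recovered reads, 2 other scalings, other filters and pseudocounts, array weights, the replicate number as a block, the letter of the library code, and leaving out each library. No 2 libraries of the same genotype were duplicates, since their 56 pairs had a chi-square of at least 43.5 for each degree of freedom. Positions came from RefSeq and GENCODE of GRCm38, the assembly of mm10.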

Additional observations from a re-analysis of the deposited data

Results flagged for a closer look

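Single libraries that stood apart were looked for in 66 sets of 8 values, by the gap to the nearest library over the range of the group. In all, 5 gaps were over the Dixon 95% limit, where about 1 in 20 is found by chance (3.3 of 66). Of these, 3 were in PS19 replicate 1, the library with the highest cluster sum: miR-666-5p was at 13935 there with the next PS19 library at 6442, miR-487b-3p at 387.2 with the next at 201.5, and miR-410-3p at 395.9 with the next at 192.4. In WT replicate 3, miR-376c-3p was at 18.8 with the next WT library at 8.04. PS19 replicate 7 had 22.6 M recovered reads, with the next PS19 library at 18.0 M.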

How the results depend on the processing

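Members at an unadjusted p under 0.05 numbered 4, and 8 with miRNAs scaled to the mature miRNA total, 0 with a mean of at least 20 (where 5.42% of all features passed), 7 with array weights and robust variances (6.94%), 8 with the replicate block (6.96%), and 2 with the code letter as a term (2.06%). Of all features, 4.0% passed without these changes. At a mean of at least 20 all 4 members fall below the filter. Leaving out 1 library gave 3 to 9 (9 without PS19 replicate 1, 8 without WT replicate 6, 7 without WT replicate 7). At an adjusted p under 0.05 the number was 0 in every fit. The median log2 difference of the members was below 0 in every fit, and lowest with the letter (-0.70). Cluster hairpins whose arm ratio passed numbered 2, and 1 with both arms at a mean of at least 20 (3.53% of all hairpins), 1 with the letter (3.31%), and 1 to 4 without 1 library (3.31% to 9.09%; 4 without PS19 replicate 1 at 6.61%, PS19 replicate 7 at 9.09% or WT replicate 6 at 6.61%, and 1 without PS19 replicate 6 at 4.13%). The miR-382 arm difference, which cannot be tested at a mean of at least 20, was -0.65 with a pseudocount of 5 (adjusted p 0.151), -0.84 with the replicate block (adjusted p 0.145), -0.85 with the letter (adjusted p 0.772), and -0.93 to -0.76 without 1 library. The cause of these changes was not tested.

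Estimates near 0 changed sign. miR-379-5p was 0.0046 with miRNA scaling and -0.25 to 0.10 without 1 library; miR-382-5p -0.070 with array weights, -0.23 with the letter and -0.12 to 0.17 without 1 library. miR-409-3p was 0.017 with library total scaling, 0.047 with miRNA scaling and -0.17 to 0.15 without 1 library. For miR-134-5p the values were -0.014 in DESeq2, -0.0095 in edgeR, -0.42 with the letter and -0.094 to 0.18 without 1 library. For miR-381-3p they were 0.0068 with library total scaling, 0.037 with miRNA scaling and -0.29 to 0.18 without 1 library. With the letter, miR-134-3p was -0.28 and miR-668-5p -0.036. Without 1 library, miR-485-5p was -0.0030 to 0.21, miR-411-5p -0.30 to 0.026 and miR-134-3p -0.0031 to 0.40.

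Same-numbered libraries correlated with r of 0.0446 to 0.456 in their deviations, 2 pairs were under 0.1, and 4 of 16 libraries correlated best with their own number. Whether the numbers pair the samples was not settled by these values. The replicate block gave 8 members at an unadjusted p under 0.05 in limma, where 6.96% of all features passed, against 4 and 4.0% without it. With 8 libraries a group, the 95% intervals were wide, and the members that passed rested on 0 to 29 reads per library; intervals cover the spread between libraries and not how reads of near-identical miRNAs were assigned.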
